A study of Mus musculus with 12 samples.

Results

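Transcripts annotated as targets of nonsense-mediated decay (NMD) were followed in RNA-Seq libraries of 4T1 cells, a BALB/c mouse line derived from a mammary tumor, after exposure to Gr1+CD11b+ myeloid cells. The members were all transcripts to which GENCODE M21 gives the type nonsense_mediated_decay, which came to 7182 of the 117081 transcripts listed, in 4573 of 35521 genes. The comparisons asked whether the part of a gene's reads that falls on such transcripts differed between 4T1 cells primed by Gr1+CD11b+ cells from tumor, 4T1 cells primed by the same kind of cells from spleen, and parental 4T1 cells.

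The 3 groups held 4 libraries each. Tu-Gr1+CD11b+–primed 4T1 cells (labelled 4T1_MDSC_T, below Tu-primed) had shared a Transwell of 0.4 µm pores for 48 hours with Gr1+ cells that magnetic columns had taken from tumors of 4T1-bearing BALB/c mice 21 days after injection, as the labels give it. For Spl-Gr1+CD11b+–primed 4T1 cells (4T1_MDSC_S, below Spl-primed), the Gr1+ cells came from the spleens of such mice. Parental 4T1 cells (4T1) carry no mention of Gr1+ cells in their labels, and whether they sat beside an empty insert was not given in the sources used here. The pores kept the cell types apart but let secreted factors pass, and the tumor cells were lysed in the well, so each library is a bulk average in which fewer cells of a kind and less RNA per cell cannot be told apart. Nothing states that the 4 libraries of a group came from separate cultures or separate donor mice, so p-values measure the spread between these libraries only.

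NMD is the route by which cytoplasmic mRNAs with an early stop codon are recognized and degraded. After splicing, an exon junction complex stays just upstream of each junction, and a ribosome that stops well before the last junction leaves such a complex in place, which recruits UPF1 and the SMG proteins. Many genes for splicing factors use the route to limit their own level, by splicing in a "poison" exon that carries a stop codon or by skipping an exon so that the frame shifts. The annotation type marks a transcript with such a structure, and is no measurement of its decay.

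The annotation rule behind the type asks for an exon junction more than 50 bases after the stop codon. The first values below therefore follow from the rule and describe the annotation. Of the 7182 transcripts, 7142 (99.4%) had their last exon junction more than 50 bases after the stop codon, against 0.648% of protein-coding transcripts, with a median distance of 334.5 bases. Their median length was 1255 bases with 303 coding bases, against 1822 and 1101 for protein-coding transcripts. TGA was the stop codon of 57.9% of the members and of 49.4% of protein-coding transcripts. Relative to the protein-coding transcripts of the same gene, 2507 members left out a coding exon, 1881 held an extra internal exon, 437 held a whole coding intron inside an exon, 2262 had another structure and 95 lay in genes with no protein-coding transcript. Each member was counted once, under the first kind it met in the order kept intron, extra exon, exon left out. Coding exons and introns here are those of any protein-coding transcript of the gene, with untranslated parts included.

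The stop codons behind the main results are printed here with the 27 bases before them in the spliced transcript, 5′ to 3′, the stop in capitals. All were read from GRCm38. The first 4 belong to transcripts of splicing factor genes that hold an extra exon, the next 2 to transcripts of CDC-like kinase genes that leave out an exon, the 2 after these to transcripts that keep a whole intron, and the last 2 to genes whose NMD share fell. Each is the stop of the member that held most of the gene's NMD reads.
Srsf3, extra exon, chr17:29039485-29039487, plus strand: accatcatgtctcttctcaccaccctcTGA
Srsf7, extra exon, chr17:80205054-80205056, minus strand: aggtttcttcgtttgagtcagtcgcctTGA
Tra2a, extra exon, chr6:49252965-49252967, minus strand: aaaaaattgaacagaagattggtcagaTAG
Luc7l2, extra exon, chr6:38585073-38585075, plus strand: ggatcttggagaatgcttgaaagtccaTGA
Clk1, exon left out, chr1:58419713-58419715, minus strand: tcacacgggatgaaattgttgatacttTAG
Clk2, exon left out, chr3:89170058-89170060, plus strand: ttcagccgctcatcttcaatgaaattgTAA
Ddx5, whole intron in an exon, chr11:106783954-106783956, minus strand: accgatgtggcctccagagggctaggtTAG
Khdc4, whole intron in an exon, chr3:88709885-88709887, plus strand: gtacaggcttctccagtcagaatgagaTAG
Eif4a2, other structure, chr16:23112358-23112360, plus strand: cgtgaaaactatattcacaggagtcgaTAG
Cenpa, exon left out, chr5:30669733-30669735, plus strand: tgtagcccaccacctcctatctggattTAA

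**Figure D1:**
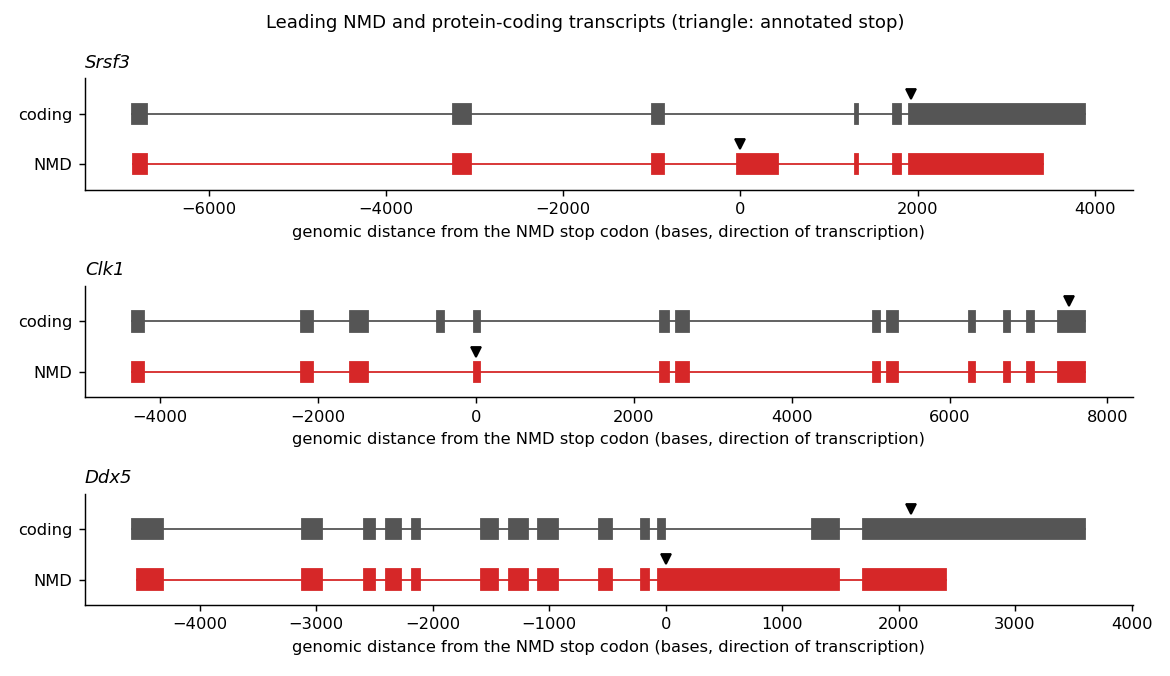
Exons (boxes) of the member with most NMD reads (red) and of the protein-coding transcript (gray) of *Srsf3*, *Clk1* and *Ddx5*, drawn to scale by genomic distance in bases from the NMD stop codon, with a triangle at each annotated stop. The early stop lies in an exon that the coding transcript of *Srsf3* lacks, behind an exon that the NMD transcript of *Clk1* leaves out, and in a stretch of *Ddx5* that is an intron of the coding transcript.

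The libraries held between 24566183 and 31637755 estimated reads, of which between 0.326% and 0.419% fell on transcripts that the annotation did not hold. All 5 epithelial markers examined (*Epcam*, *Krt8*, *Krt18*, *Krt19* and *Cdh1*) had counts in every library, with summed levels of 1629 to 1985 counts per 1000000 reads (CPM) in Tu-primed, 2035 to 2178 in Spl-primed and 2297 to 3441 in parental cells. Of 14 granulocyte and monocyte markers, 6 had no count in any Tu-primed, 7 in any Spl-primed and 5 in any parental library. Their summed levels were 6.63 to 11.7, 5.12 to 7.15 and 5.79 to 6.81 CPM. The epithelial sums did not overlap between the 3 groups, but *Krt8* and *Krt18* made up most of each sum. The other markers did not share 1 direction. Mean levels in Tu-primed, Spl-primed and parental cells were 76.5, 87.1 and 70.7 CPM for *Epcam*. They were 47.3, 40.8 and 47.2 for *Krt19*, and 63.3, 70.2 and 78.7 for *Cdh1*. The granulocyte and monocyte sums overlapped between every pair of groups, with the highest value, 11.7 CPM, in a Tu-primed library. The part of either sum in the results was not tested.

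NMD transcripts took a larger part of the reads in both primed groups than in parental cells. The 4 Tu-primed libraries had 2.36%, 2.35%, 2.35% and 2.42% of all reads on members, the 4 Spl-primed libraries 2.32%, 2.38%, 2.50% and 2.39%, and the parental libraries 2.05%, 2.08%, 2.00% and 1.88%. Both primed groups lay wholly above the parental group and overlapped each other. The means were 2.37% ± 0.0323 (SD, n = 4), 2.40% ± 0.0731 and 2.00% ± 0.0846. The difference from parental cells was 0.365 percentage points in Tu-primed and 0.395 in Spl-primed cells, each with p = 0.0286, the smallest that an exact two-sided permutation test of 4 against 4 allows, and 0.0429 after Benjamini-Hochberg adjustment over the 3 comparisons. Tu-primed and Spl-primed cells differed by -0.0298 points (exact permutation test, p = 0.514). Counting error alone was smaller than these differences, with Wilson 95% intervals between 0.00987 and 0.0120 points wide per library.

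The same held when each gene counted once. Of 11150 genes with at least 20 reads in every library, 3271 had a member. The median over these genes of the NMD share, the percent of a gene's reads that fell on its members, was 1.60% ± 0.0463 (SD, n = 4) in Tu-primed, 1.55% ± 0.187 in Spl-primed and 0.640% ± 0.187 in parental cells. The differences of 0.962 and 0.908 points from parental cells had an adjusted p of 0.0429 by the same exact permutation test, and the primed groups differed by 0.0539 points (exact permutation test, p = 0.743). At the minimum of 20 reads, *Pkp1* was just included with shares of 0 to 16.7% and *Pxmp2*, with 19 reads in its lowest library, was just left out with shares of 0 to 36.0%.

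NMD was not the class that moved most. Reads on retained-intron transcripts, a separate annotation type without a coding frame, made up 3.36% ± 0.110 (SD, n = 4) in Tu-primed, 3.34% ± 0.241 in Spl-primed and 2.12% ± 0.102 in parental cells. Within the members, those that hold a whole coding intron had 0.0700% of all reads in parental libraries and 0.157% in both primed groups, and members that left out an exon had 0.756% in parental, 0.827% in Tu-primed and 0.834% in Spl-primed libraries. Those with an extra internal exon had 0.370% in parental, 0.503% in Tu-primed and 0.483% in Spl-primed libraries, and those of other structure 0.779%, 0.848% and 0.890%. These parts are descriptions and were not tested singly.

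**Figure D2:**
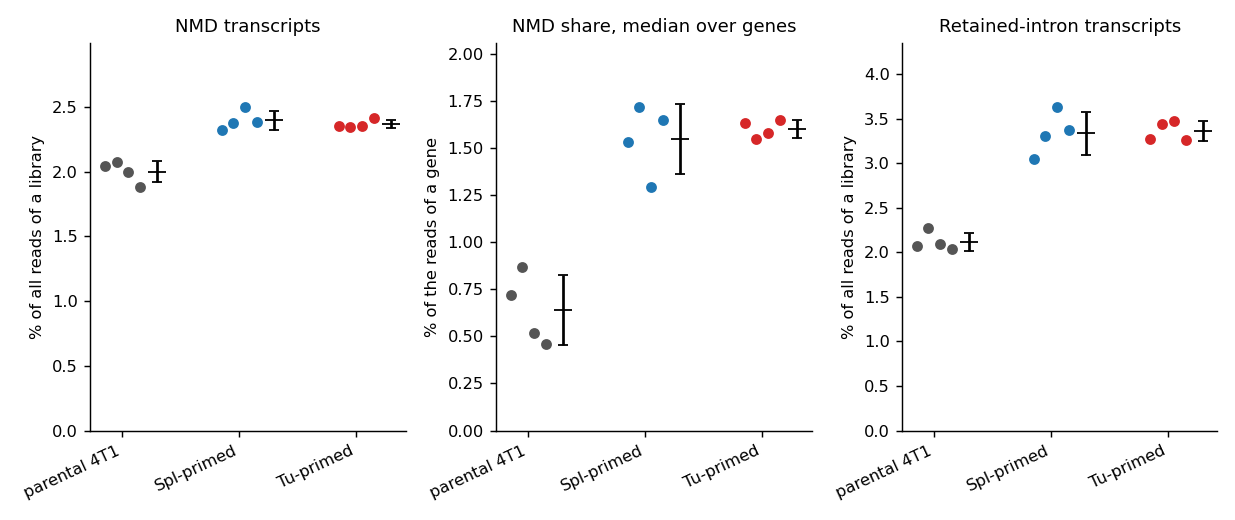
Percent of all reads on NMD transcripts, median NMD share over 3271 genes, and percent of all reads on retained-intron transcripts in each of the 12 libraries, with the mean and SD of each group of 4 beside the points. In all panels the 8 primed libraries lie above the 4 parental ones, while Tu-primed and Spl-primed libraries overlap.

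Gene by gene, NMD shares were higher rather than lower in primed cells. Shares of 2171 genes (3986 members) with enough reads on and off the members were tested with edgeR's quasi-likelihood test, and p-values were adjusted by the Benjamini-Hochberg method over all 16869 pairs of gene and transcript class with a threshold of 0.05. Of the other 1100 genes with a member, 236 had no NMD read in any library. In Tu-primed against parental cells, 302 genes had a higher and 40 a lower NMD share, 13.9% and 1.84% of those tested. In Spl-primed against parental cells, 278 were higher and 31 lower, 12.8% and 1.43%. Among all pairs of gene and class the background was 20.7% higher and 15.7% lower in Tu-primed, and 19.2% and 14.4% in Spl-primed cells. Each class is set against the other reads of its gene, so the pairs of a gene are not independent. Protein-coding shares made up 2544 of the 2652 lower calls in Tu-primed and 2342 of 2428 in Spl-primed cells. Both comparisons use the same 4 parental libraries.

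The other classes give the context for these counts. Of 4918 retained-intron shares, 54.7% were higher and 0.468% lower in Tu-primed, and 51.3% and 0.325% in Spl-primed cells. The shares of processed transcripts, spliced but without a coding frame, were higher in 16.2% and lower in 1.48% of 2774 genes in Tu-primed, and 14.0% and 1.3% in Spl-primed cells, close to NMD. Protein-coding shares were lower in 36.5% and higher in 0.775% of 6965 genes in Tu-primed, and 33.6% and 0.646% in Spl-primed cells. The median log2 difference in odds (reads on the class against the other reads of the gene) was 0.34 and 0.32 for NMD, 1.65 and 1.55 for retained introns, and -0.90 and -0.84 for protein-coding transcripts. A rise in share was therefore not particular to NMD transcripts in these data.

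The calls were spread unevenly over the kinds of NMD transcript. Where the leading member of a gene held a whole coding intron, 78 of 188 genes (41.5%) were higher in Tu-primed and 73 (38.8%) in Spl-primed cells. Where it held an extra internal exon, 80 of 492 (16.3%) and 72 (14.6%) were higher, and where it left out a coding exon, 64 of 803 (7.97%) and 54 (6.72%). Reads of a kept intron are divided by the quantification among all annotated transcripts that hold that intron, so an NMD transcript of this kind and unspliced precursor RNA cannot be told apart by these counts. Without members of this kind, a choice made after seeing the data, 224 genes were higher in Tu-primed and 206 in Spl-primed cells.

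**Figure D3:**
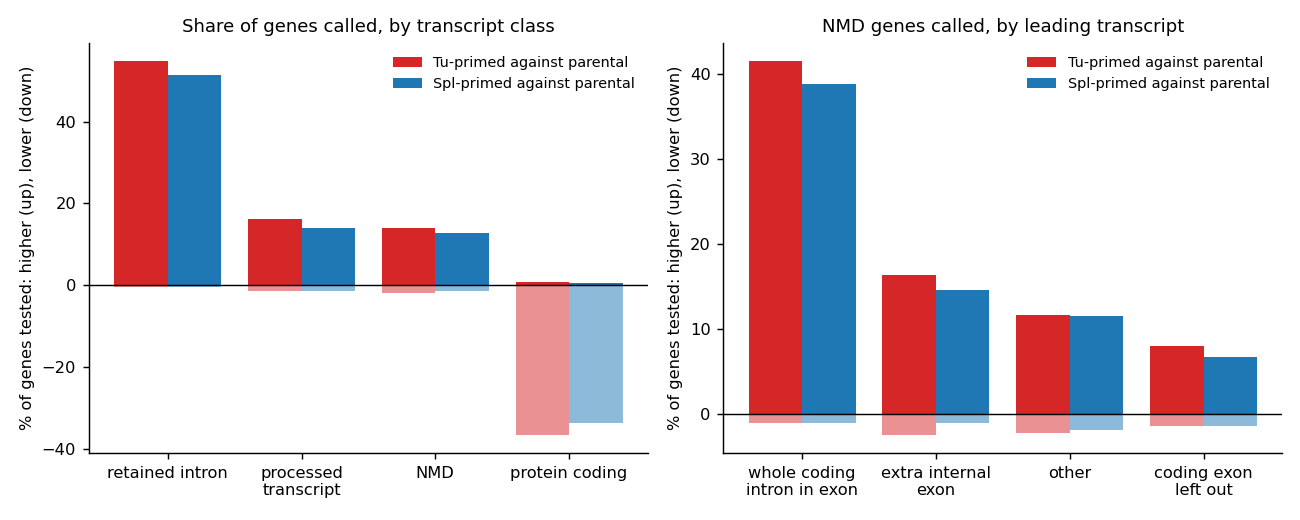
Percent of genes called higher (bars above 0) and lower (pale bars below 0) than in parental cells at an adjusted p under 0.05, by transcript class on the left and, for NMD shares, by the structure of the leading member on the right. Retained-intron shares lead on the left with 54.7% and 51.3% higher, NMD stands at 13.9% and 12.8%, and within NMD the members that hold a whole coding intron lead with 41.5% and 38.8%.

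Among the 302 genes higher in Tu-primed cells, the groups of 4 shares did not overlap in 261, where 15.2% of all tested genes lay above without overlap. Their median share was 1.24% in parental and 6.46% in Tu-primed cells, a description of genes chosen for their rise, where the median over all 2171 tested genes was 4.13% and 5.45%. Library-scaled NMD reads (per 1000000 reads of a library, RPM) were higher in all but 2 of them, with the gene's other reads also higher in 210 and lower in 90. At gene level 143 (47.4%) of these genes rose and 69 (22.8%) fell, against 36.1% and 26.9% of all genes tested for NMD share. A retained-intron share was tested in 222 of them and was higher in 159 (71.6%), against 59.8% of all genes with both. In Spl-primed cells the 278 higher genes had a median share of 1.22% in parental and 6.21% in primed cells, with 238 not overlapping, where 13.5% of all tested genes lay above without overlap. The 40 lower genes of Tu-primed cells went from a median share of 31.7% in parental to 20.8%, and 32 of them did not overlap, where 3.32% of all tested genes lay below without overlap. The 31 lower genes of Spl-primed cells went from 30.1% to 18.6%, and 28 did not overlap, where 3.04% lay below.

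Splicing factor genes were examined by list. SR proteins and their relatives Tra2a and Tra2b bind exons and promote their inclusion, and many carry a poison exon. Of 13 such genes, 11 had a member and 10 were tested; 7 were higher in Tu-primed and 6 in Spl-primed cells, and none was lower. Over all genes tested for NMD share, 13.9% were higher and 1.84% lower in Tu-primed, and 12.8% and 1.43% in Spl-primed cells. The median log2 odds difference of the list was 2.10 and 1.45, against 0.34 and 0.32 over all these genes. *Srsf6* was at 33.2% in Tu-primed, 36.2% in Spl-primed and 38.6% in parental cells and did not pass.

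*Srsf3*, which encodes the smallest SR protein, had NMD shares of 28.8%, 27.2%, 25.7% and 26.2% in Tu-primed, 22.0%, 24.1%, 20.1% and 23.9% in Spl-primed, and 6.58%, 10.4%, 4.17% and 1.96% in parental libraries. The 3 groups did not overlap. The log2 odds difference from parental cells was 2.83 ± 0.43 (SE, adjusted p = 0.000586) in Tu-primed and 2.48 ± 0.43 (adjusted p = 0.00142) in Spl-primed cells. The gene's total was not called (log2 fold changes of -0.01 in each), while its NMD reads went from 27.2 RPM in parental to 143 and 118 in primed cells and its other reads from 440 to 386 and 407. Its retained-intron share went with them, from 2.16% to 17.3% and 17.4%.

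*Srsf7* showed the same pattern from a lower level. Its share was 10.5%, 10.0%, 10.3% and 8.81% in Tu-primed, 6.38%, 5.62%, 6.76% and 8.54% in Spl-primed, and 0.920%, 2.23%, 0.744% and 0.965% in parental libraries, again 3 groups without overlap. The log2 odds differences were 3.28 ± 0.32 (adjusted p = 7.28e-05) and 2.69 ± 0.32 (adjusted p = 0.000193), and the gene as a whole rose by 0.45 and 0.53 on the log2 scale. *Tra2a* had 19.3%, 17.8%, 24.8% and 12.1% in Tu-primed, 12.2%, 12.2%, 11.8% and 14.0% in Spl-primed, and 3.60%, 5.37%, 3.23% and 1.82% in parental libraries. Both primed groups lay above the parental one and overlapped each other, with log2 odds differences of 2.70 ± 0.35 (adjusted p = 0.000254) and 2.07 ± 0.35 (adjusted p = 0.00111).

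*Srsf11* had NMD shares of only 0.724%, 0.563% and 0.194% in the Tu-primed, Spl-primed and parental groups, yet these were separate (log2 odds differences of 1.87 and 1.52, adjusted p of 7.06e-05 and 0.000192). Most of its shift was in the retained-intron share, at 53.3%, 42.5% and 14.7%. *Srsf1*, *Tra2b* and *Srsf4*, named after their values had been seen, completed the 7 higher genes, with mean shares of 1.10%, 6.39% and 10.2% in Tu-primed against 0.218%, 1.53% and 6.45% in parental cells. *Srsf4* did not pass in Spl-primed cells (9.04%, adjusted p = 0.0535).

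CDC-like kinases phosphorylate SR proteins, and skipping of an exon in their pre-mRNA gives the NMD form. All 4 genes were tested. *Clk1*, *Clk2* and *Clk3* were higher in both primed groups, against 13.9% and 12.8% of all genes tested for NMD share. *Clk4* (4.57%, 4.10% and 2.49% in Tu-primed, Spl-primed and parental cells) did not pass. The median log2 odds difference of the list was 3.45 and 3.28, against 0.34 and 0.32 over all these genes. *Clk1* had 14.0%, 18.9%, 16.1% and 14.0% in Tu-primed, 15.2%, 6.71%, 13.8% and 12.3% in Spl-primed, and 3.38%, 2.99%, 0.313% and 0 in parental libraries. No primed library fell within the parental range, and the log2 odds differences were 3.98 ± 0.93 (adjusted p = 0.00651) and 3.48 ± 0.94 (adjusted p = 0.0146). *Clk2* stood at 26.2% ± 2.40 (SD, n = 4) and 20.8% ± 4.36 in primed against 4.48% ± 4.75 in parental cells, and *Clk3* at 1.64% and 2.09% against 0.193%. Unlike *Srsf3*, these genes rose as a whole, *Clk1* by 1.28 and 1.08 and *Clk2* by 1.25 and 1.28 on the log2 scale. Retained-intron shares of *Clk1* were 35.4% and 37.9% in primed and 8.68% in parental cells.

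Of 28 other splicing regulators, 20 were tested; 8 were higher in Tu-primed and 7 in Spl-primed cells, against 13.9% and 12.8% of all genes tested for NMD share, and none was lower, against 1.84% and 1.43%. The median log2 odds difference of the list was 1.00 and 1.22, against 0.34 and 0.32 over all. *Luc7l2*, which codes for a protein tied to the U1 snRNP, had mean shares of 11.5% ± 1.83 (SD, n = 4), 9.53% ± 2.08 and 2.24% ± 1.28 in Tu-primed, Spl-primed and parental cells (log2 odds differences of 2.67 and 2.35, adjusted p of 0.000901 and 0.00211). *U2af2*, whose product binds the polypyrimidine tract before the 3′ splice site, had 2.94% ± 0.405, 2.78% ± 0.115 and 0.471% ± 0.150, with log2 odds differences of 2.72 and 2.64. *Srrm2*, which codes for a large scaffold of nuclear speckles, moved from 0.0760% to 0.430% and 0.312%. These genes had no overlap between primed and parental libraries.

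*Ddx5*, an RNA helicase gene, combined a large shift with many reads. Its NMD share was 31.4%, 33.9%, 30.6% and 36.5% in Tu-primed, 33.5%, 38.0%, 38.4% and 37.1% in Spl-primed, and 7.43%, 12.1%, 6.19% and 6.36% in parental libraries. The primed groups lay far above the parental one and overlapped each other. Log2 odds differences were 2.56 ± 0.23 (adjusted p = 6.36e-05) and 2.79 ± 0.23 (adjusted p = 7.39e-05). NMD reads were 427 and 445 RPM in primed and 69.9 in parental cells, and other reads 867, 767 and 784. The leading member, with 90.1% of the NMD reads, keeps a whole intron, and without members of that kind the log2 odds difference was -0.62 and -0.55 and did not pass (adjusted p of 0.169 and 0.228).

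The hnRNPs are a further class of pre-mRNA binding proteins. Of 20 genes, 10 were tested. In Tu-primed cells 1 was higher and 1 lower, and in Spl-primed cells 2 were higher. Over all genes tested for NMD share, 13.9% were higher and 1.84% lower in Tu-primed, and 12.8% and 1.43% in Spl-primed cells. The median log2 odds difference of the list was 0.13 and 0.22, against 0.34 and 0.32 over all. *Hnrnpa1* was higher in both, at 16.3% to 19.7% in Tu-primed and 15.5% to 18.7% in Spl-primed against 9.65% to 15.1% in parental cells (log2 odds differences of 0.64 and 0.52, adjusted p of 0.0133 and 0.0378). *Hnrnpd*, named after its values had been seen, was the other one in Spl-primed cells (21.0% against 14.6%). *Hnrnpdl* was lower in Tu-primed cells, at 11.4% against 17.3% (log2 odds difference -0.69 ± 0.20, adjusted p = 0.0206), although 1 Tu-primed library, at 14.0%, lay above the lowest parental value of 13.7%. Its total rose by 1.02.

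Outside the splicing lists, the 10 largest rises in percentage points were named for each comparison. *Khdc4*, a gene for an RNA-binding protein with KH domains, had shares of 62.6%, 58.0%, 52.9% and 58.6% in Tu-primed, 53.4%, 54.3%, 54.0% and 54.2% in Spl-primed, and 15.2%, 33.1%, 24.4% and 16.7% in parental libraries. Most reads of the gene were on NMD transcripts in the primed groups. Log2 odds differences were 2.33 ± 0.30 and 2.09 ± 0.30 (adjusted p of 0.000261 and 0.000519), and the gene as a whole rose by 1.58 and 1.86. Its leading member keeps an intron, with the last junction 55 bases after the stop, and without members of this kind the differences were -1.44 and -2.24 and did not pass (adjusted p of 0.636 and 0.423).

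The leading member also keeps an intron in 4 other genes named for their rise. *Habp4*, a hyaluronan-binding protein gene, went from 6.47% ± 1.76 (SD, n = 4) in parental to 32.4% ± 1.21 in Tu-primed and 32.7% ± 2.91 in Spl-primed cells, with log2 odds differences of 2.81 and 2.83. *Adamts10*, which encodes a secreted metalloprotease of the extracellular matrix, went from 7.20% ± 2.86 to 41.4% ± 8.20 and 36.0% ± 10.7. *Pif1*, a DNA helicase gene, went from 7.81% ± 11.7 to 38.3% ± 8.43 in Tu-primed cells, and was at 26.9% ± 13.0 in Spl-primed cells, where it did not pass (adjusted p = 0.0930). *Abtb1* reached 49.2% ± 5.17 in Spl-primed against 23.3% ± 15.0 in parental cells, and was at 38.4% ± 3.30 in Tu-primed cells without passing.

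Further rises had other structures. *Cyb5r1*, a gene for a cytochrome b5 reductase, had 39.7%, 40.2%, 33.8% and 31.3% in Tu-primed, 29.6%, 33.9%, 35.8% and 30.1% in Spl-primed, and 5.19%, 15.1%, 8.72% and 4.52% in parental libraries. The log2 odds differences were 2.79 ± 0.38 and 2.55 ± 0.38 (adjusted p of 0.000324 and 0.000647), although the gene's total rose by only 0.22 and 0.26. *Dph2*, a gene for an enzyme of diphthamide synthesis, went from 27.5% ± 5.59 to 50.7% ± 9.07 and 53.1% ± 11.4. *Polg2*, the accessory subunit of the mitochondrial DNA polymerase, was at 46.3% ± 9.96 and 48.4% ± 10.7 against 17.6% ± 3.63, and *Mr1*, which encodes an antigen-presenting molecule for vitamin B metabolites, at 56.0% ± 3.84 and 40.1% ± 13.8 against 21.1% ± 4.29.

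Several of the largest rises rest on few reads or on scattered values. *Porcn*, whose product attaches the lipid of Wnt proteins, had between 26 and 97 reads per library, and its parental shares were 64.3%, 0, 7.69% and 0 against 65.8% to 90.7% in Tu-primed cells (adjusted p = 0.0335). *Naa60*, an N-terminal acetyltransferase gene, ranged from 30.7% to 96.2% in Tu-primed and from 2.54% to 29.3% in parental cells. *Nadsyn1* (NAD synthetase) ranged from 42.6% to 51.2% and from 0 to 27.0%. *Ankrd39*, with 79 to 136 reads, was at 45.7% ± 4.85 and 50.9% ± 8.63 against 3.85% ± 4.45.

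In *Camk4*, a gene for a calcium/calmodulin-dependent kinase with 35 to 127 reads, the NMD share was 0 in all 4 parental libraries and 27.3%, 33.8%, 55.6% and 39.5% in Spl-primed ones, so no fold is given. In Tu-primed cells it was 0, 43.8%, 25.7% and 38.7%. *Kdm5d* was higher in Spl-primed cells (55.8% ± 5.76 against 30.3% ± 3.90), but it had at most 62 reads, lies on the Y chromosome and has a close copy on the X chromosome, so its values are uncertain.

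In the genes with a lower NMD share, library-scaled NMD reads were lower in 32 of 40 in Tu-primed and in 25 of 31 in Spl-primed cells, and higher in the other 8 and 6, with the gene's other reads also higher in each of these. *Eif4a2*, a translation initiation helicase gene, had 44.0%, 39.2%, 39.6% and 46.2% in Tu-primed, 44.1%, 43.0%, 40.8% and 40.8% in Spl-primed, and 66.3%, 54.3%, 69.5% and 64.1% in parental libraries. The log2 odds difference from parental cells was -1.27 ± 0.21 in each (adjusted p of 0.000953 and 0.00110). The gene rose by 1.58 and 1.43 on the log2 scale; NMD reads were 114 and 102 RPM in primed and 50.3 in parental cells, while its other reads were 157, 141 and 30.1. *Zfp950* had a share of 44.1%, 43.5% and 60.1% in Tu-primed, Spl-primed and parental cells and a gene-level rise of 1.28 and 1.47.

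*Cenpa*, the gene of the centromeric histone variant, fell from 51.4%, 51.1%, 51.7% and 48.0% in parental libraries to 37.0%, 35.7%, 32.6% and 38.5% in Tu-primed and 36.7%, 37.3%, 38.9% and 35.0% in Spl-primed ones (log2 odds differences of -0.87 ± 0.15 and -0.80 ± 0.15, adjusted p of 0.00109 and 0.00195). Its retained-intron share was 35.8% and 33.9% in primed against 5.56% in parental cells. Set against protein-coding reads only, the odds difference of *Cenpa* was 0.14 in each comparison and did not pass (adjusted p of 0.579 in each). That choice leaves out reads of every other class, not of retained introns alone, and the part of these in the lower share was not tested. *Becn1*, an autophagy gene, fell from 71.1% ± 2.79 (SD, n = 4) to 56.7% ± 4.03 and 59.5% ± 4.21, and *Stk16*, a kinase gene, from 46.9% ± 4.22 to 32.2% ± 4.00 and 29.1% ± 4.52, each with a higher retained-intron share as well (33.1% and 30.6% against 18.1% for *Becn1*, 30.2% and 33.4% against 10.8% for *Stk16*).

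*Gtpbp3*, which codes for an enzyme of mitochondrial tRNA modification, went from 80.1% ± 5.65 (SD, n = 4) in parental to 56.9% ± 6.45 in Tu-primed and 60.2% ± 3.36 in Spl-primed cells, with log2 fold changes of its total of -0.02 and 0.21. *Gpr137b*, a lysosomal membrane protein gene, went from 38.5% ± 6.16 to 25.4% ± 1.24 and 25.5% ± 3.38, and *Pabpn1*, the nuclear poly(A)-binding protein gene, from 25.8% ± 3.53 to 14.3% ± 2.59 and 13.0% ± 1.15. In these 2 genes retained introns held at most 3.85% of the reads in any group. *Lilr4b*, a leukocyte receptor gene, had 43.1% ± 5.83 in parental, 13.3% ± 2.28 in Tu-primed and 9.37% ± 1.06 in Spl-primed cells, but it has near-identical neighboring copies among which reads can be split, so its shares are uncertain. In Tu-primed cells the share of *Mark4* also fell by 24.6 points, that of *Per3* fell by 15.2 and that of *Zbtb8os* fell by 13.7. In Spl-primed cells the share of *Trmt13* fell by 19.6 and that of *Ogfod2* fell by 18.5 points.

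**Figure D4:**
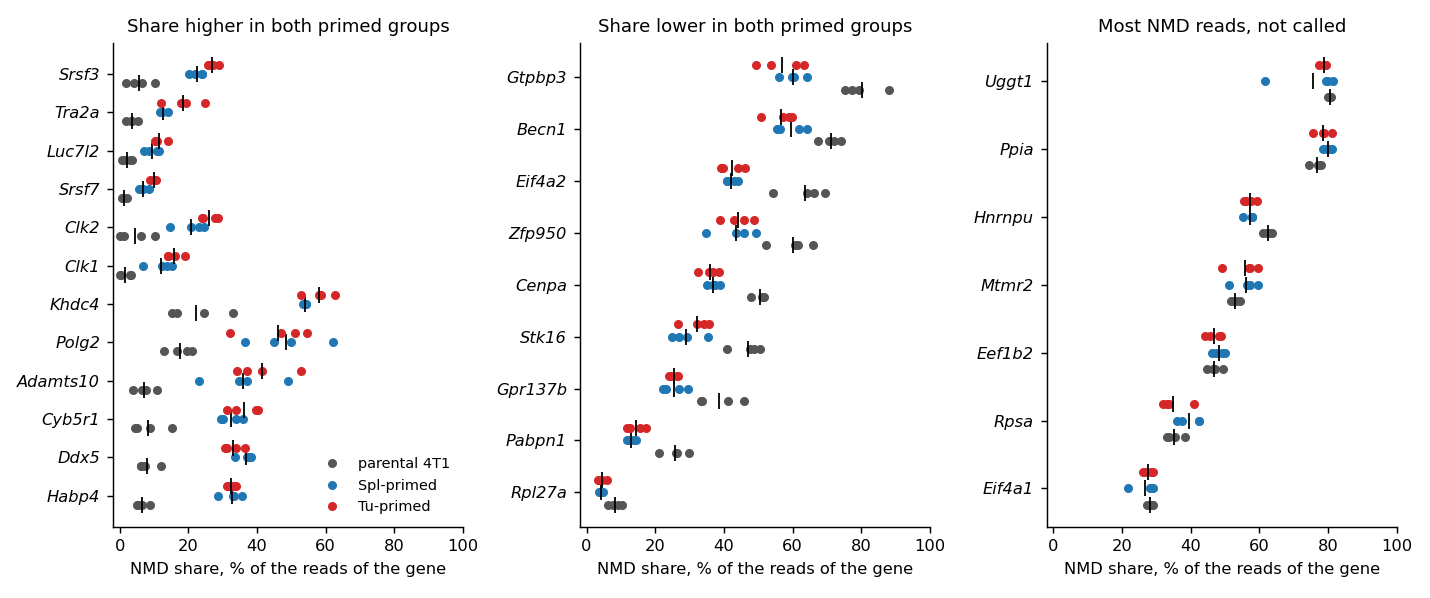
NMD share in each library, as percent of the reads of the gene, for named genes that rose in both primed groups (left), that fell in both (middle) and for the most abundant members that were not called (right), with a black tick at each group mean. Primed libraries stand to the right of parental ones on the left (for *Ddx5*, 30.6% to 38.4% against 6.19% to 12.1%) and to the left of them in the middle. Lack of overlap was a condition for genes named for large rises or falls. On the right the libraries lie closer together, and *Hnrnpu* (both primed groups), *Ppia* (Spl-primed) and *Uggt1* (Tu-primed) do not overlap the parental ones.

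Ribosomal protein genes, which are prone to reads shared with processed pseudogenes, had a member in 24 of 96 cases, and 18 were tested. Of these 6 were higher and 1 lower in Tu-primed, and 8 higher and 1 lower in Spl-primed cells, where 13.9% and 1.84% of all genes tested for NMD share were higher and lower in Tu-primed and 12.8% and 1.43% in Spl-primed cells. Their median log2 odds difference was 0.65 and 0.47, against 0.34 and 0.32 over all. *Rps13* went from 0.0847% to 0.726% and 0.593%, *Rps9* from 0.433% to 1.01% and 0.926%, *Rps19* from 0.339% to 0.607% and 0.563%, and *Rpl3* from 0.762% to 2.52% and 2.24%. All 4, named for their NMD share, fell at gene level in both comparisons. Over all 12555 genes, 28.0% were lower in Tu-primed and 22.5% in Spl-primed cells. Gene-level changes of the other ribosomal protein genes are not given here. *Rpl27a* was the lower one, at 4.37% ± 1.14 (SD, n = 4) and 4.10% ± 0.566 against 8.35% ± 1.75.

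Most of the genes with the most NMD reads did not pass the test. The 8 genes with the most NMD reads held 19.8% of all NMD reads, and *Ppia*, the cyclophilin A gene, alone 6.65%. Of the 8, *Ddx5* alone was called. *Ppia* had shares of 78.5% ± 2.22 (SD, n = 4), 79.9% ± 1.07 and 76.7% ± 1.59 in Tu-primed, Spl-primed and parental cells, *Rpsa* 34.8%, 39.6% and 35.1%, *Eif4a1* 27.6%, 26.8% and 28.2%, *Mtmr2* 55.7%, 56.1% and 53.0%, and *Eef1b2* 46.7%, 48.1% and 46.8%. *Uggt1*, a folding sensor of the endoplasmic reticulum, had 78.7% ± 0.859, 75.6% ± 9.38 and 80.5% ± 0.454, with 61.6% in a single Spl-primed library. *Ppia* in Spl-primed and *Uggt1* in Tu-primed cells did not overlap the parental libraries, with adjusted p of 0.146 and 0.704. *Hnrnpu* lay lower in both primed groups without overlap, at 57.1%, 57.2% and 62.4%, but missed the threshold (adjusted p of 0.0554 and 0.0646). *Ppia* and *Rpsa* have many pseudogenes, which can draw reads.

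The genes of the decay route itself were compared at gene level, over 12555 genes of which 31.2% were higher and 28.0% lower in Tu-primed and 25.7% and 22.5% in Spl-primed than in parental cells (edgeR, adjusted p under 0.05). Of 17 NMD factors, 3 were higher and 8 lower in Tu-primed, and 3 higher and 5 lower in Spl-primed cells, with median log2 fold changes of -0.23 and -0.07, against 0.02 over all genes in each comparison. *Upf1*, the central helicase, had between 84.8 and 102 CPM in Tu-primed, 98.0 and 109 in Spl-primed and 112 and 115 in parental cells. It fell by 0.33 in Tu-primed cells (adjusted p = 0.000489), and its difference of -0.13 in Spl-primed cells did not pass (adjusted p = 0.0991). *Smg5* and the release factor genes *Gspt1* and *Etf1* fell in both comparisons, by 0.36, 0.36 and 0.26 in Tu-primed and by 0.19, 0.28 and 0.29 in Spl-primed cells.

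The 3 NMD factors that rose did so in both. *Smg6*, the endonuclease gene of the route, rose by 0.51 ± 0.07 (SE) and 0.46 ± 0.07, *Pnrc2*, which links UPF1 to decapping, by 0.53 and 0.36, and *Upf3b* by 0.35 and 0.33. Of 9 genes of the exon junction complex and its partners, *Pnn* (0.54 and 0.62), *Acin1* (0.22 and 0.30) and *Casc3* (0.18 and 0.26) rose, and *Rbm8a* (-0.43 and -0.36) and *Eif4a3* (-0.28 and -0.16) fell. *Magoh* (-0.13 and -0.10), *Magohb* (0.007 and -0.08) and *Rnps1* (-0.01 and 0.12), named after their values had been seen, did not pass in either comparison. *Sap18*, named after its values had been seen, fell by 0.30 in Spl-primed cells, and its value of -0.17 in Tu-primed cells did not pass. Of 7 genes of decapping and 5′ decay, *Dcp2* (0.45 and 0.38), *Dcp1b* (0.40 and 0.44), *Edc4* (0.30 and 0.32) and *Dcp1a* (0.29 and 0.29) rose in both, and none fell.

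**Figure D5:**
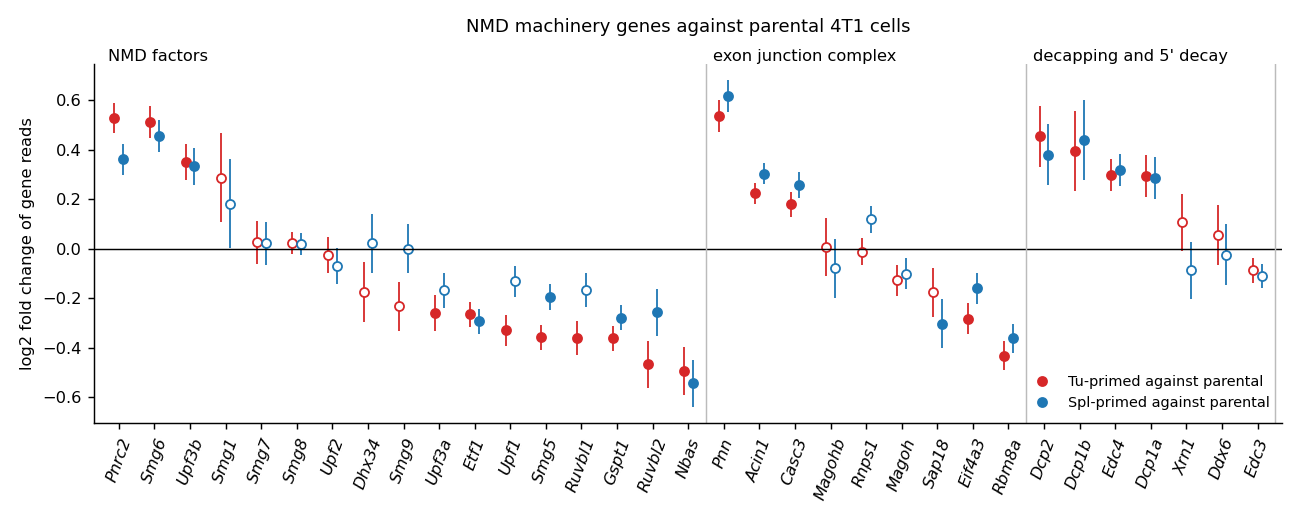
Log2 fold change of gene reads against parental 4T1 cells for 33 genes of the NMD machinery, with SE bars, filled where the adjusted p was under 0.05. Filled points occur in both directions among NMD factors and exon junction complex genes and only above 0 among decapping genes, where 4 of 7 are filled in both comparisons, and all changes lie between -0.54 and 0.62.

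Transcripts known from other cells to be held down by NMD were examined as a further list of 9 genes. Of these 6 could be tested, and *Gas5*, *Snhg1* and *Snhg12* could not. In Tu-primed cells 5 were higher, *Gadd45a* by 1.06, *Gadd45b* by 0.84, *Ddit3* by 0.54, *Upp1* by 0.38 and *Atf4* by 0.34, and *Tbl2* did not pass (0.05). The choice to name *Ddit3* and *Tbl2* came after seeing their values. In Spl-primed cells *Gadd45b*, *Gadd45a* and *Atf4* were higher by 0.70, 0.55 and 0.37 and *Upp1* fell by 0.19. Over all 12555 genes, 31.2% were higher in Tu-primed cells, and 25.7% were higher and 22.5% lower in Spl-primed cells. *Gadd45a*, a growth arrest gene, stood at 8.61 ± 0.586 CPM (SD, n = 4) in Tu-primed, 6.03 ± 0.585 in Spl-primed and 4.12 ± 0.244 in parental cells, with no overlap between the 3 groups. These genes also answer to stress signals, and the part of decay in their level was not tested.

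Between Tu-primed and Spl-primed cells, edgeR called none of the 2171 NMD shares (0.0% in each direction). At an unadjusted p under 0.05, 38 were higher and 26 lower, against 249 and 250 of all 16869 pairs of gene and class. The fits by limma and edgeR's diffSpliceDGE also called 0, and DESeq2 called 1 lower. Against parental cells diffSpliceDGE called 235 higher and 29 lower in Tu-primed and 233 and 35 in Spl-primed cells, but shared with the calls above 174 of 302 and 11 of 40 in Tu-primed, and 163 of 278 and 12 of 31 in Spl-primed cells. *Flna*, the gene that DESeq2 called lower between the primed groups, had an NMD share of 23.4% in Spl-primed replicate 3. Its share was 0.168% in Spl-primed replicate 1 and 0 in the other 10 libraries. The groups of 4 shares did not overlap in 51 genes higher in Tu-primed (2.35%) and 35 lower (1.61%). Without any difference, 4 against 4 values lie apart with a probability of 0.0286, both directions together, so these genes can lie apart by chance. *Srsf3*, *Srsf7* and *Srsf11* were among the genes whose Tu-primed libraries all lay above the Spl-primed ones, by 4.47, 3.06 and 0.161 percentage points in the mean, each with an adjusted p of 1. The 10 tested SR and TRA2 genes had a median log2 odds difference of 0.27 against 0.05 over all genes. At gene level 4.66% of genes were higher and 2.97% lower in Tu-primed than in Spl-primed cells, none of the 33 machinery genes passed, and of the 6 tested transcripts held down by NMD, *Upp1* (0.57, adjusted p = 5.23e-05) and *Gadd45a* (0.52, adjusted p = 0.00340) were higher in Tu-primed cells.

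Spl-primed replicate 3 was the library that stood apart most often among the shares of named genes. Without it, 233 genes were higher and 29 lower in Spl-primed than in parental cells, of which 214 and 24 were among the 278 and 31 called with all libraries. The differences in NMD percent and in the median share were then 0.361 and 0.993 points, each with an adjusted p of 0.0857 (exact permutation test), and p = 0.0571 before adjustment is the smallest that 3 against 4 libraries allow. The 40 lower genes in Tu-primed cells dropped to 24 without parental replicate 4 and to 24 without Tu-primed replicate 3. The count of machinery genes lower in Spl-primed cells, 8 in all, was 5 without Spl-primed replicate 1, 5 without replicate 2 and 12 without replicate 3. Between primed groups, where none was called, 3 were lower without Tu-primed replicate 4 and 1 without Spl-primed replicate 4.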

How the data were processed

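The authors deposited 1 transcript table per library, with estimated counts that were not normalized and TPM values scaled by transcript length and depth. The submitters' processing notes list FastQC, Trimmomatic 0.39 and Salmon 1.4.0 and the builds GRCm38 and mm10; the annotation release and the RNA selection of the TruSeq Stranded libraries are not given in the sources used here. A normalized table per gene was not used. An expected count rests on how reads shared between transcripts are divided, and no measure of that uncertainty was used here.

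Transcript types came from GENCODE M21 (GRCm38), which held 116021 of 117081 listed transcripts and 7186 NMD transcripts. Estimated counts were summed by gene and type and rounded. Genes needed 20 reads in every library, and a class and the rest of its gene 60 reads each over the 12 libraries. The share was fitted in edgeR 4.0.16 (R 4.3.3; quasi-likelihood, 24 columns of reads in and out of a class, library as a term) with all 12 libraries; SE is the log2 value over the root of F. Gene level used filterByExpr and TMM. Library values used the exact two-sided permutation test. limma 3.58.1, DESeq2 1.42.0, Python 3.11.15, pandas 2.3.3, SciPy 1.17.1 and matplotlib 3.10.9 were also used. TPM served as an alternative only. On simulated data of 16869 rows for Tu-primed against parental cells, edgeR found 191 of 200 changed shares (log2 odds change of 2) and called 15 unchanged ones. The changed shares were drawn only from NMD rows of genes with many reads and without very small or very large shares. The simulated spread was fixed and held no uncertainty of quantification. These counts are therefore no measure of power for genes with few reads or small shares.

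The members, gene lists and tests were chosen with earlier results of these data known. Named genes were, per comparison, the 10 largest rises and falls in percentage points among called genes whose groups do not overlap, the 8 genes with most NMD reads, and up to 4 called genes per direction and list with the smallest p. Depth was 24566183 to 31637755 reads; intervals cover counting error only. Replicates were separate libraries (lowest chi-square per degree of freedom 14.6). Its highest value was 46.3, between parental replicates 2 and 4, and the highest with Spl-primed replicate 3 was 42.6.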

Additional observations from a re-analysis of the deposited data

Results flagged for a closer look

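In 168 groups of 4 shares of named genes, a sample was set apart when its gap to the next, divided by the range, passed Dixon's 95% critical value, which chance passes in about 1 of 20 groups, and 13 did so. Spl-primed replicate 3 was the lowest in 4 of them, with an NMD share of 10.7% in *Hnrnpdl*, 55.3% in *Hnrnpu*, 61.6% in *Uggt1* and 21.7% in *Eif4a1*, where the other Spl-primed libraries had 13.5% to 13.7%, 57.7% to 58.0%, 79.3% to 81.5% and 28.0% to 28.9%. The same library had the highest percent of all reads on NMD transcripts of its group, 2.50%. Parental replicate 2 was the highest for *Srsf7* (2.23%) and *Clk3* (0.771%, the others 0). Parental replicate 4 was the lowest for *U2af2* (0.246%) and *Cenpa* (48.0%) and the highest for *Mark4* (70.4%). Parental replicate 1 was the highest for *Porcn* (64.3%), *Naa60* (29.3%) and *Ogfod2* (34.3%). Tu-primed replicate 4 was the lowest for *Ankrd39* (38.5%).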

How the results depend on the processing

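The higher NMD percent in both primed groups kept its direction under every alternative run. These were share of summed TPM, members with a late junction only, and without the 10 genes with most NMD reads. Chosen after seeing the data were without kept introns and as percent of NMD and protein-coding reads. The late-junction run kept 7142 of the 7182 members, so it could change little. Leaving out 1 library gave 0.326 to 0.3898 points for Tu-primed and 0.356 to 0.420 for Spl-primed against parental cells, and -0.0543 to 0.00390 between primed groups; for the median over genes it gave 0.902 to 1.04, 0.848 to 0.993 and -0.0318 to 0.110. Tests of 3 against 4 cannot go below 0.0571. Genes called higher in Tu-primed cells numbered 470 by DESeq2, 156 at an adjusted p under 0.01 and 240 to 344 without 1 library, and those lower 83, 14, 24 to 48, and 25 without a class minimum. In Spl-primed cells 466, 124 and 214 to 311 were higher, with 179 in a fit of only the 8 libraries compared, and 87, 12 and 24 to 39 were lower. Between primed groups DESeq2 called 1 NMD share lower. The cause of these shifts was not tested. The machinery counts without 1 library were 9 to 10 higher and 10 to 11 lower in Tu-primed, 8 to 11 and 5 to 12 in Spl-primed cells, and 0 and 0 to 3 between primed groups, where DESeq2 called *Pnrc2* (1 higher), *Upf1* and *Smg5* (2 lower) and the 8-library fit *Pnrc2* (1 higher). With RLE normalization 9 and 11 were called in Tu-primed and 10 and 11 in Spl-primed cells. Same-numbered libraries did not deviate together (correlations of NMD shares from -0.0497 to 0.0468; at gene level 0.0839 to 0.148 for Tu-primed with parental and -0.164 to 0.0721 for the other pairs); with a replicate block the NMD counts were 270 and 31 in Tu-primed, 230 and 25 in Spl-primed cells, and 0 between primed groups, and the machinery counts 9 and 10, 9 and 7, and 0. Of 1470 alternative values of the 83 called values of named genes, 1310 stayed called in the same direction, 154 lost the threshold and 6 reversed: *Ddx5* (-0.62 and -0.55) and *Khdc4* (-1.44 and -2.24) without members that keep an intron, and *Cenpa* (0.14 and 0.14) against protein-coding reads only. Of the lost ones, 29 of 83 were under diffSpliceDGE. Some of the 83 had no value under 2 settings and are not among the 1470 there. With 100 reads per gene, 66 had a value and all stayed. Without members that keep an intron, 71 stayed, 1 lost the threshold and 4 reversed, and the rest had no value. Genes with few reads or with mainly kept introns can thus be missing from these checks. Shares of genes with few reads move in large steps, *Pkp1*, *Porcn*, *Camk4* and *Kdm5d* among them.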
